A study of Mus with 2 samples.

Results

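The Clec3b Dpt fibroblasts of the newborn kidney were 99 cell barcodes, 53 in replicate 1 and 46 in replicate 2, of 11369 barcodes kept in 2 mutant libraries. Members were selected on measured counts: a barcode was taken when it held at least 3 unique molecular identifiers (UMIs, each standing for 1 captured RNA molecule) of Clec3b, Dpt, Pi16 and Tnxb together. It also had to hold at least 3 UMIs of Col1a2 and Col3a1 together, and 0 of the epithelial gene Epcam and of the endothelial gene Pecam1. Expression of EYFP was not asked for. The barcodes set against them, called stroma below, were 2481 (1371 and 1110) with at least 1 EYFP UMI, at least 3 UMIs of the same pair of collagen genes and 0 of the 4 selecting genes.

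Adventitial fibroblasts lie in the outer coat of vessels and in the connective tissue around organs. Dermatopontin (Dpt), peptidase inhibitor 16 (Pi16), tenascin XB (Tnxb) and tetranectin (Clec3b) mark such fibroblasts in many organs, where they build collagen and elastic fibres and secrete growth factors. The kidney's interstitial stroma arises largely from progenitors that express the transcription factor Foxd1. The product of Rbpj binds DNA and carries the signal of activated Notch receptors to their target genes.

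Both libraries came from kidneys taken at postnatal day 0 from mice of the genotype Rbpj c/- ; Foxd1cre/+. In these animals Cre made under the control of Foxd1 deletes the conditional allele in cells of the stromal lineage, and the other Rbpj copy is labelled "-" in every cell. The series' design also names 2 control libraries (Rbpj c/+ ; Foxd1cre/+), which were not analysed here, so nothing below compares mutant with control. The labels do not say what EYFP reports, nor whether a library was 1 kidney or a pool. The p-values rest on how class levels vary between these libraries once the overall library difference is removed. That spread was estimated over members, stroma and 7 further classes together, and it may be technical.

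The libraries held 163405630 and 135436576 UMIs. Of the barcodes with at least 2000 UMIs, 6220 and 5149 passed a limit of 10% mitochondrial UMIs, and 6 of these barcode sequences occurred in both libraries, none of them a member. The members had medians of 8404 and 8117.5 UMIs against 10564 and 9980 in the stroma. Summed, they gave 495489 and 452778 UMIs, and these sums set the precision of every member level below. Levels are a gene's UMIs per 1000000 UMIs of the class in that library (CPM). They are not divided by gene length, since 1 UMI stands for 1 RNA molecule read at its 3' end.

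Members made up 0.852% of kept barcodes in replicate 1 (95% exact Clopper-Pearson interval 0.639 to 1.11) and 0.893% in replicate 2 (0.655 to 1.19), a mean of 0.873% ± 0.0292 (SD, n = 2). Among barcodes with the collagen minimum they were 2.91% and 3.14%. These intervals cover counting error only, and the shares depend on how well each cell type survived dissociation.

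The selecting genes are given as a description, since they chose the members. Clec3b stood at 1296 and 1407 CPM in the 2 libraries, with a UMI in 86 of 99 members. Tnxb stood at 505 and 565 CPM (90 of 99), Dpt at 424 and 369 CPM (66 of 99) and Pi16 at 256 and 190 CPM (50 of 99). All 4 genes were present together in 35 members, 3 of them in 31, 2 in 26 and 1 in 7. The genes lie apart in the GRCm38.p6 annotation: Clec3b at chr9:123150946-123157432, Dpt at chr1:164796663-164824274, and Pi16 and Tnxb on chromosome 17, at chr17:29318796-29328903 and chr17:34660453-34719815. The Tnxb interval overlaps Cyp21a2-ps. In the other cell classes Clec3b, Dpt and Tnxb reached at most 3.66 CPM in any library, while Pi16 reached 16.5 and 8.44 CPM in endothelial barcodes.

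Most members lay far from the threshold. The sum of the 4 genes was 12 or more in 68 of 99 members (38 and 30) and ran up to 67. Only 8 barcodes that met the other conditions had a sum of 2, and 55 had a sum of 1, against 1426 and 1188 with 0. The 8 barcodes at 2 had 802 CPM of Dlk1 and 4356 CPM of the collagen-binding proteoglycan Dcn, and the 19 members at 3 to 5 had 2002 and 5189 CPM. Barcodes with a sum of 1 had 157 CPM of Dlk1 and 1228 CPM of smooth muscle actin (Acta2), against 27.7 CPM of Acta2 in those at 2 and 46.6 in those at 3 to 5.

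**Figure D1:**
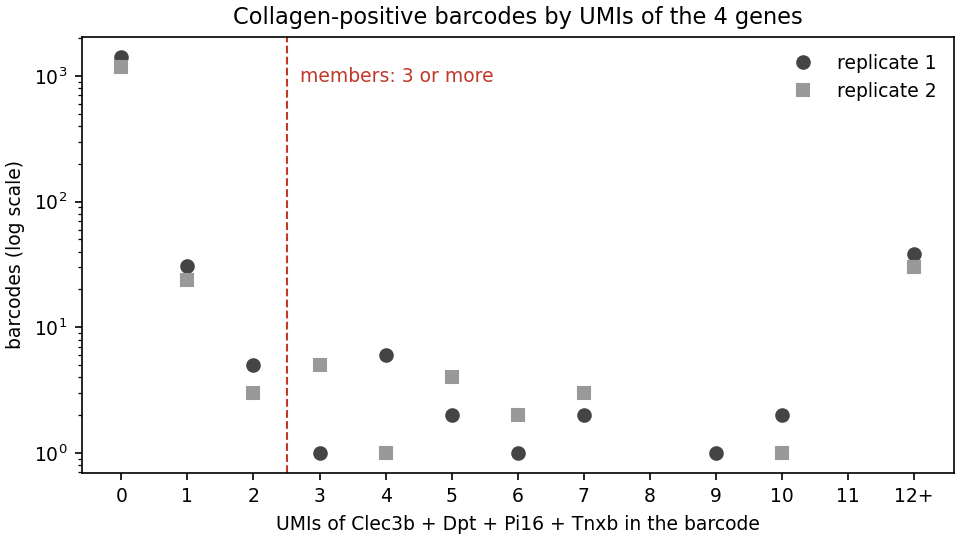
Barcodes with at least 3 collagen UMIs and no Epcam or Pecam1 UMI (y axis, log scale) by their summed UMIs of Clec3b, Dpt, Pi16 and Tnxb (x axis, 12 and above pooled), for each library. Members lie right of the dashed line, and 38 and 30 of them are in the pooled class at 12 or more.

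The members' label was checked against Dlk1, which the rule did not use but which was proposed with it, so its values too are a description. Dlk1, a membrane-bound relative of the Notch ligands that is made by many immature mesenchymal cells, had a UMI in 94 of 99 members. Its level was 3748 and 3942 CPM in members and 23.8 and 18.2 CPM in stroma. The next class was endothelial, at 151 and 73.0 CPM. Both member libraries lay above every library of the other classes.

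The members were not uniform. The 50 members with a Pi16 UMI had 5272 CPM of Dlk1, 3171 CPM of the microfibril gene Mfap5 and 345 CPM of the stem cell antigen gene Ly6a, both libraries summed. The 49 without had 2368, 1162 and 68.5 CPM. The chemokine gene Cxcl12 went the other way, at 162 CPM with and 571 CPM without Pi16. Dcn was much alike, at 6345 and 6192 CPM. Since Pi16 was one of the selecting genes, these values carry no test. The group without Pi16 holds 8 members with mesothelial markers, described next; the other 41 had 2640 CPM of Dlk1, 1533 CPM of Mfap5, 89.4 CPM of Ly6a, 767 CPM of Cxcl12 and 6399 CPM of Dcn.

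These 8 members, 4 in each library, carried at least 2 UMIs of 5 mesothelial markers (Msln, Upk3b, Upk1b, Lrrn4 and Krt19). Mesothelium is the epithelium-like sheet that covers organs. They held 1876 CPM of mesothelin (Msln) and 1859 CPM of uroplakin 3b (Upk3b), while the other 91 members held 2.42 and 0 CPM. Dpt, Pi16, Foxd1 and the keratan sulphate proteoglycan gene Lum were at 0 in the 8, and none had an EYFP UMI. They still held 5595 CPM of Dcn and 1585 CPM of Dlk1. Their median depth was 14120.5 UMIs. The doublet caller Scrublet, used as an alternative setting, marked 4 of these 8 for removal and 3 of the other 91. The 8 were kept in the values below unless stated. Without them, genes described below that lost their call between members and stroma included Slpi, Msln, Upk3b, Krt19, Hes1, Mki67, Top2a, Egr1, Fos, Hspb1, Hoxa11, Hoxc10, Peg10 and Kdr.

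**Figure D2:**
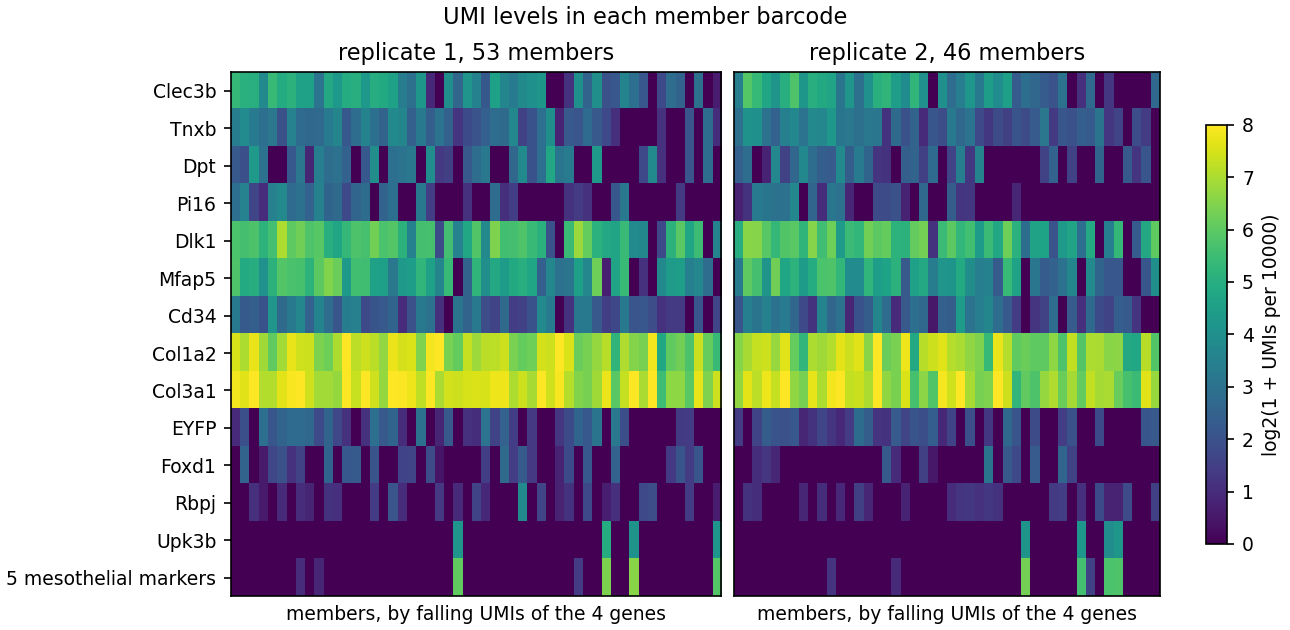
Each column is 1 member barcode, ordered within its library by falling UMIs of the 4 selecting genes, and colour gives log2(1 + UMIs per 10000 UMIs of the barcode). Dlk1 and Mfap5 are seen across most columns, Pi16 mainly on the left, and Upk3b in 4 columns of each library, none of which has EYFP.

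Markers of other cell types in members ran from lower to higher than in stroma. The 8 mural markers summed to 337 and 250 CPM in members and 1377 and 1283 CPM in stroma. Podocyte markers summed to 54.5 and 50.8 CPM against 1606 and 1744 CPM, and mesothelial markers to 1086 and 576 CPM against 25.2 and 6.33 CPM. Endothelial markers were at 98.9 and 50.8 CPM against 90.6 and 52.1 CPM, with Pecam1 at 0 by the rule. Of the other endothelial markers tested, Cdh5 and Kdr were higher in members and Emcn lower, as given below. Epithelial markers summed to 119 and 75.1 CPM against 188 and 87.2 CPM, and nephron progenitor markers to 40.4 and 106 CPM against 131 and 174 CPM. The 5 Schwann and neural markers summed to 28.3 and 44.2 CPM in members against 8.29 and 5.66 CPM in stroma. Most of this was S100b, with 11 and 18 UMIs in 21 members against 7 and 0 in stroma (log2 fold change 7.35 ± 0.84, adjusted p = 1.9e-05), while Sox10 was at 0. The immune markers Lyz2 and C1qa were at 0 in both member libraries. The part of these cell types in the results below was not tested. The 5 erythroid markers, 4 haemoglobin genes and Alas2, summed to 2603 and 157 CPM in members against 1271 and 1647 CPM in stroma, and 680 of the 797 Hbb-bs UMIs of replicate 1 were in a single member.

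Both sides of the comparison held barcodes that also met the marker rule of another class. Among members these were 5 and 3 barcodes. Of the stroma's barcodes, 229 and 142 did so, 144 and 92 of them the podocyte rule, and 54 and 23 held more than 50000 UMIs. No member met the podocyte rule or passed 50000 UMIs. The test was therefore repeated against stroma without barcodes of another class, an alternative added after the data were seen, and a part of its values is given below. That stroma, named below by the missing classes only, also had to hold 0 UMIs of Epcam and of Pecam1. The parts of these conditions in its values were not told apart. The alternative left out no member. Against that stroma the epithelial markers Krt8 (2.97) and Cldn3 (2.80), the nephron progenitor markers Cited1 (3.37) and Crym (1.73) and 3 endothelial markers, Cdh5, Kdr and Flt1, were higher in members by the same edgeR test. The 8 members with mesothelial markers held 40 of the 46 Krt8 UMIs, all 13 of Cldn3 and 21 of the 29 of Crym. Without those 8, against the full stroma, Krt8 was at −1.98 and Crym at −0.90, neither passing (adjusted p = 0.29 and 0.24). Of the 29 Cited1 UMIs in members 28 were in replicate 2. The part of such cells in the members' levels was not tested. Members also held more of the selecting collagens, with medians of 250 and 230.5 UMIs of Col1a2 and Col3a1 against 21 and 22 in stroma.

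UMIs were summed per library and class, and members were compared with stroma over 14977 genes, with the library as a block. Unless stated otherwise, an adjusted p below comes from the quasi-likelihood test of edgeR, adjusted by the Benjamini-Hochberg method. Of these, 3247 genes (21.7%) passed an adjusted p of 0.05, 1705 (11.4%) higher and 1542 (10.3%) lower in members. The median log2 fold change of all genes was −0.19, and 1790 genes had no UMI in members. With a floor of 3 UMIs in place of 0 UMIs in a group, where the other group held more than 3, that median was 0.02. Medians below are of fitted values unless stated. With RLE factors in place of TMM the fitted median was −0.08 and the split 1914 higher and 1123 lower (63.0% higher against 52.5%). DESeq2, which also differs in its dispersion estimate and test, gave 0.00 and 2214 higher and 1163 lower (65.6% higher). Counts in a list are to be read against these shares. The lists were drawn up with earlier results of these data known. In summed counts, fewer cells making an RNA and less RNA per cell cannot be told apart.

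Genes that mark adventitial or universal fibroblasts in other organs were higher in members, 20 of 23 tested, with a median log2 fold change of 3.15 against −0.19 over all genes. Mfap5, which organises elastic microfibrils, was at 2375 and 1968 CPM in members and 33.0 and 31.5 CPM in stroma (log2 fold change 6.19 ± 0.17 SE, adjusted p = 9.0e-13). The ferritin receptor gene Scara5 was at 258 and 144 CPM against 0.857 and 0.733 CPM (8.07 ± 0.42), and Medag, an adipogenesis gene, at 90.8 and 106 CPM against 0.286 and 0.200 CPM (8.64 ± 0.56). Member and stroma libraries did not overlap for any of the 3. These were named among genes that passed with the same direction in both libraries, so this is no further evidence.

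Cd34, a sialomucin of progenitor and endothelial cells, was at 472 and 466 CPM in members and 16.6 and 11.5 CPM in stroma (log2 fold change 5.16), and was seen in 91 of 99 members. Pdgfra, the receptor that defines most fibroblasts, differed less, at 377 and 378 CPM against 139 and 170 CPM (1.41 ± 0.17). Col15a1 (0.79, adjusted p = 0.13) and Thy1 (0.50, adjusted p = 0.43) did not pass. Dpp4, a surface peptidase of fibroblasts and tubules, was the 1 gene of the list that was lower in members, at 88.8 and 104 CPM against 241 and 230 CPM. Against stroma without barcodes of another class it was higher in members instead (log2 fold change 4.40).

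Of 21 interstitial collagens and collagen-processing genes, 19 were higher in members and none lower (median 2.96). The chain Col1a1, not part of the rule, stood at 14184 and 13271 CPM against 679 and 866 CPM (log2 fold change 4.31 ± 0.36, adjusted p = 2.5e-07). The microfibrillar chain Col6a6 differed most, with 309 and 318 CPM against 1.10 and 0.333 CPM (8.83 ± 0.45), followed by Col5a3, at 337 and 400 CPM against 2.71 and 2.73 CPM (7.19 ± 0.29). The members' lowest library lay above the highest stroma library for each of these chains, which were also named among genes that passed with the same direction in both libraries.

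Because collagen genes chose the members and a low minimum chose the stroma, the same list was also compared with stroma holding at least 20 collagen UMIs. Col1a1 was then 3.84 higher on the log2 scale and Col14a1 3.27, against 3.95 for Col14a1 in the full comparison. The lysyl hydroxylase Plod1, which modifies collagen before secretion, had 0.77 (adjusted p = 0.027) and lost its call there (0.65, adjusted p = 0.084) and against stroma without barcodes of another class, where 18 genes were higher. Col8a1 (1 and 4 UMIs in members) and Col11a1 did not pass in either comparison.

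Elastic fibre genes were higher in 17 of 19 cases (median 2.49). Elastin (Eln) was at 1370 and 972 CPM in members and 42.6 and 38.4 CPM in stroma (log2 fold change 4.95 ± 0.20). Fibulin 2 (Fbln2), which links elastic fibres and basement membranes, was at 973 and 769 CPM against 6.57 and 5.06 CPM (7.35 ± 0.27), and fibrillin 1 (Fbn1), the microfibril backbone, at 1354 and 1131 CPM against 112 and 121 CPM. Emilin1, an elastic-fibre glycoprotein, was lower, at 72.7 and 128 CPM against 191 and 212 CPM (−0.90, adjusted p = 0.0023). Efemp2 did not pass (0.37, adjusted p = 0.069). Against stroma without barcodes of another class 16 were higher, and Fbln5, a fibulin of elastic fibre assembly, lost its call (0.37, adjusted p = 0.07). The crosslinking enzyme gene Lox was uneven between the member libraries, at 1374 and 596 CPM, and both values lay above the stroma's 96.4 and 67.0 CPM.

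All 10 small leucine-rich proteoglycan genes that could be tested, of 12 listed, were higher in members, with a median of 4.97. Against stroma without barcodes of another class 9 were, and Ecm2 lost its call (1.01, adjusted p = 0.087). Dcn was present in every member, at 6095 and 6460 CPM against 129 and 156 CPM in stroma (log2 fold change 5.59 ± 0.22). Lum followed at 515 and 870 CPM against 7.33 and 11.9 CPM (6.28 ± 0.20), and asporin (Aspn), which binds TGF-beta, at 1167 and 897 CPM against 35.0 and 25.5 CPM (5.21 ± 0.14). Lum was higher in replicate 2 and Aspn in replicate 1, and no member library came near the stroma's level.

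**Figure D3:**
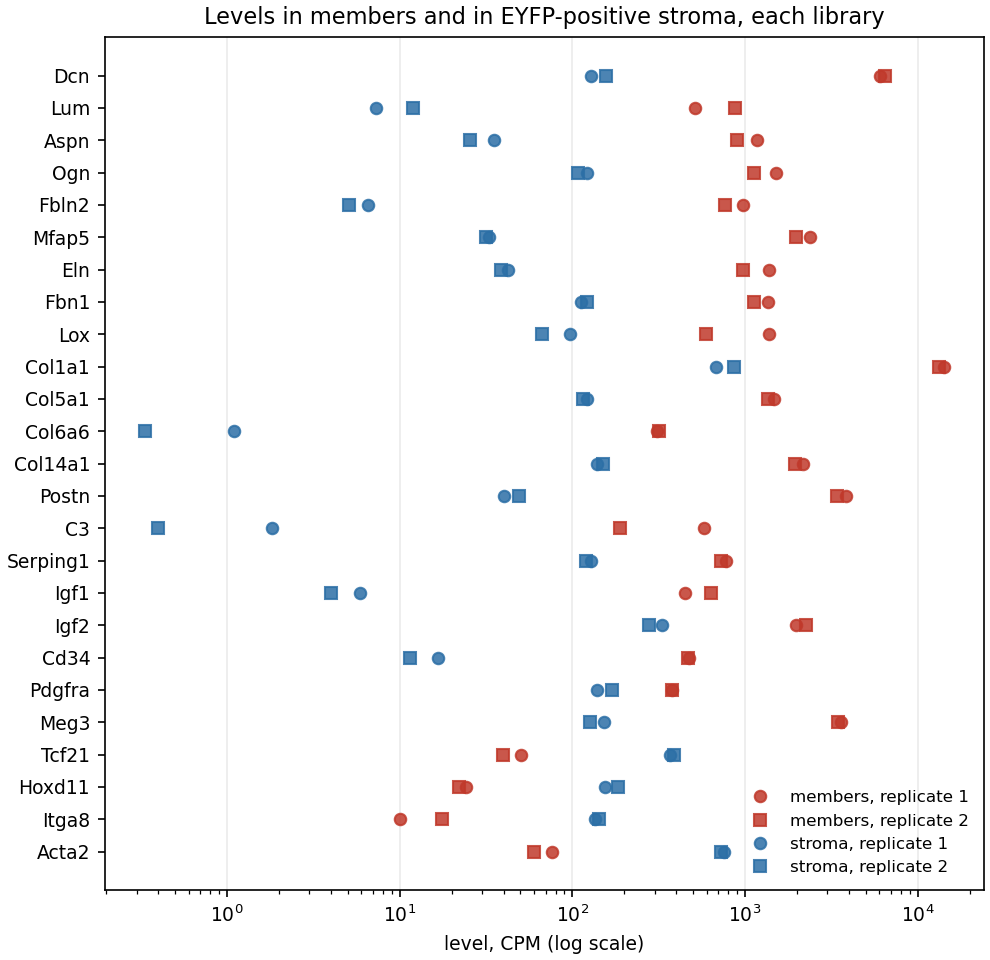
Level in CPM (log scale) of 25 genes in members (red) and EYFP-positive stroma (blue), 1 point for each library. For the genes from Dcn down to Meg3 both red points lie right of both blue points, and for Tcf21, Hoxd11, Itga8 and Acta2 they lie left.

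Complement genes were mixed. Of 12 tested, 6 were higher and 2 lower (median 2.27, or 2.80 with the floor of 3 UMIs). The C1 inhibitor gene Serping1 was found in 97 of 99 members and stood at 781 and 731 CPM against 129 and 119 CPM (log2 fold change 2.73 ± 0.11). C2 was at 119 and 70.7 CPM against 1.10 and 1.53 CPM. C3, the central complement component, was at 577 and 188 CPM against 1.81 and 0.400 CPM (8.51), but only 17 members had a UMI, 1 of them holding 179 of the 286 UMIs of replicate 1. Without the 8 members with mesothelial markers C3 was 4.68 higher. The membrane regulator gene Cd59a was lower (−2.21) and lost its call against stroma without barcodes of another class (0.54, adjusted p = 0.48).

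Some genes of the insulin-like growth factor axis and most of the imprinted genes tested were also higher in members. Igf1, a growth hormone target and mitogen, was at 452 and 634 CPM in members and 5.86 and 4.0 CPM in stroma (log2 fold change 6.84 ± 0.23). Igf2, its fetal relative, was at 1964 and 2270 CPM against 331 and 276 CPM (2.93 ± 0.46). Igfbp6, which binds Igf2, was at 1138 and 713 CPM against 39.5 and 44.9 CPM (4.58 ± 0.24). In all, 6 of 12 genes of the axis were higher and Igfbp7 lower (−0.90, adjusted p = 0.037, lost in 6 of 18 alternatives).

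Of 16 imprinted genes tested, 11 were higher and 1 lower (median 1.64). The non-coding RNA Meg3, from the same imprinted cluster as Dlk1, was at 3613 and 3445 CPM in members and 152 and 127 CPM in stroma (log2 fold change 4.79 ± 0.39). H19, which neighbours Igf2, was at 1699 and 1904 CPM against 412 and 299 CPM (2.49 ± 0.40). Plagl1, a zinc-finger gene of the imprinted network, was 2.69 higher. Cdkn1c, an imprinted cell cycle inhibitor, showed no difference that passed the test (0.11, adjusted p = 0.75), but it was 1.41 higher against stroma without barcodes of another class. Peg10 was lower (−1.40, adjusted p = 0.030).

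Transcription factors of the kidney stroma split into both directions, with 7 higher and 12 lower of 26 tested (median −0.51, or −0.24 with the floor of 3 UMIs). Tcf21, needed in kidney and other visceral mesenchyme, was at 50.5 and 39.8 CPM in members and 368 and 389 CPM in stroma (log2 fold change −2.94 ± 0.27, adjusted p = 9.4e-07). The kidney-level homeobox genes were lower too: Hoxd11 was at 24.2 and 22.1 CPM against 154 and 184 CPM (−2.74), and Hoxd10 (−1.88), Hoxa11 (−1.46), Hoxa10 (−1.23) and Hoxc10 followed. Sall1, a zinc-finger regulator of kidney development, had 3 UMIs in all members against 1987 in stroma, a ratio of levels of 0.0573 (exact interval 0.0118 to 0.168). Against stroma without barcodes of another class Tcf21 was at −3.13 and Hoxd11 at −3.12, while Hoxc10 lost its call (−0.76, adjusted p = 0.082).

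The 7 factors higher in members included several known from other connective tissues. Ebf2, known from adipose and bone stroma, was at 52.5 and 64.0 CPM against 0.190 and 0.266 CPM (log2 fold change 8.03 ± 0.52). Prrx1, a mesenchymal homeobox gene, was at 264 and 371 CPM against 11.3 and 17.4 CPM (4.59 ± 0.32), and Klf4 at 236 and 256 CPM against 9.10 and 5.53 CPM (5.15 ± 0.21). Osr1 (3.89), Twist2 (3.88) and Tbx18, known from the mesenchyme of the ureter (4.35), were also higher. Foxd1 itself, the source of the Cre's promoter, was at 125 and 64.0 CPM in members and 102 and 98.2 CPM in stroma (0.05 ± 0.32, adjusted p = 0.92), and the libraries overlapped.

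Markers of the kidney's stromal zones were likewise split, 11 higher and 6 lower of 21. Itga8, the integrin subunit of mesangial and nephrogenic stroma, was at 10.1 and 17.7 CPM in members against 136 and 143 CPM (log2 fold change −3.23 ± 0.32). Cxcl14, a chemokine gene, had 1 UMI in members against 1486 in stroma (ratio of levels 0.0256, exact interval 0.000647 to 0.143), and Clca3a1 had 4 against 2134. The zone markers Cck and Corin were at 0 UMIs in members, with 201 and 340 UMIs in stroma, and did not pass (adjusted p = 0.095 and 0.094). Postn, a matrix protein of fibrous tissue, was at 3865 and 3410 CPM against 40.2 and 49.0 CPM (6.48 ± 0.27). Against stroma without barcodes of another class 9 were higher and 6 lower. Crym, counted among the 9, had most of its UMIs in the members with mesothelial markers. Penk, a neuropeptide precursor of medullary stroma, was 0.62 higher and lost its call there (−0.09), as did the matrix gene Tnc (0.55) and the ligand gene Wnt5a (0.28).

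Wnt pathway modulators gave 9 higher and 3 lower of 17 tested (median 0.98, or 1.26 with the floor of 3 UMIs). The ligand gene Wnt2 was at 36.3 and 53.0 CPM in members and 0.333 and 0.466 CPM in stroma (log2 fold change 6.87 ± 0.50). Secreted antagonists differed in direction. Sfrp2 was at 323 and 283 CPM against 28 and 23.5 CPM (3.67) and Dkk2 at 92.8 and 148 CPM against 16.3 and 11.7 CPM (3.18). Dkk1 had no UMI in members and 3014 and 2129 in stroma, at least 45.1-fold lower when 3 UMIs over both member libraries are taken as the floor (adjusted p = 4.8e-04). Lef1, a nuclear effector of the pathway, had no UMI in members and was at least 8.78-fold lower.

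Of 22 genes of the TGF-beta and BMP pathways, 8 were higher and 3 lower. Follistatin (Fst), an activin trap, was at 196 and 221 CPM against 1.0 and 1.60 CPM (log2 fold change 7.47 ± 0.99), and the BMP antagonist Chrdl1 at 56.5 and 37.5 CPM against 0.333 and 0.0666 CPM (7.77). The receptor gene Tgfbr2 was at 307 and 265 CPM against 40.2 and 37.4 CPM. Bmp7 was lower (−2.59, adjusted p = 0.0049), but it was 1.17 higher, without passing, against stroma without barcodes of another class (adjusted p = 0.42). Against that stroma 8 genes of the TGF-beta and BMP list were higher and 4 lower, and 8 and 2 of the Wnt list.

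Among chemokines and secreted growth factors, 15 of 26 were higher and 3 lower (median 1.76). Fgf7, an epithelial mitogen, was at 64.6 and 83.9 CPM in members and 0.857 and 0.599 CPM in stroma (log2 fold change 6.73 ± 0.42). Csf1, the macrophage growth factor, was at 153 and 95.0 CPM against 11.4 and 9.72 CPM (3.67), and the alarmin Il33 at 311 and 322 CPM against 61.2 and 56.3 CPM (2.55). Fgf18 (7.71) and Ccl11 (5.60) also passed. Pleiotrophin (Ptn) was lower, at 571 and 488 CPM against 2063 and 2108 CPM (−1.86). Vegfa was lower (−1.51) and lost that call against stroma without barcodes of another class (0.86, adjusted p = 0.15), where 15 of the list were higher and 4 lower.

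Retinoid genes gave 6 higher and 1 lower of 15, and 6 and 2 against stroma without barcodes of another class. The 3 retinaldehyde dehydrogenases, which make retinoic acid, did not share a direction. Aldh1a2 was at 30.3 and 81.7 CPM in members against 220 and 225 CPM (log2 fold change −1.91 ± 0.43), while Aldh1a1 (4.36) and Aldh1a3 (2.89) were higher. Rarres2, which encodes the adipokine chemerin, was at 1556 and 837 CPM against 101 and 116 CPM (3.59).

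**Figure D4:**
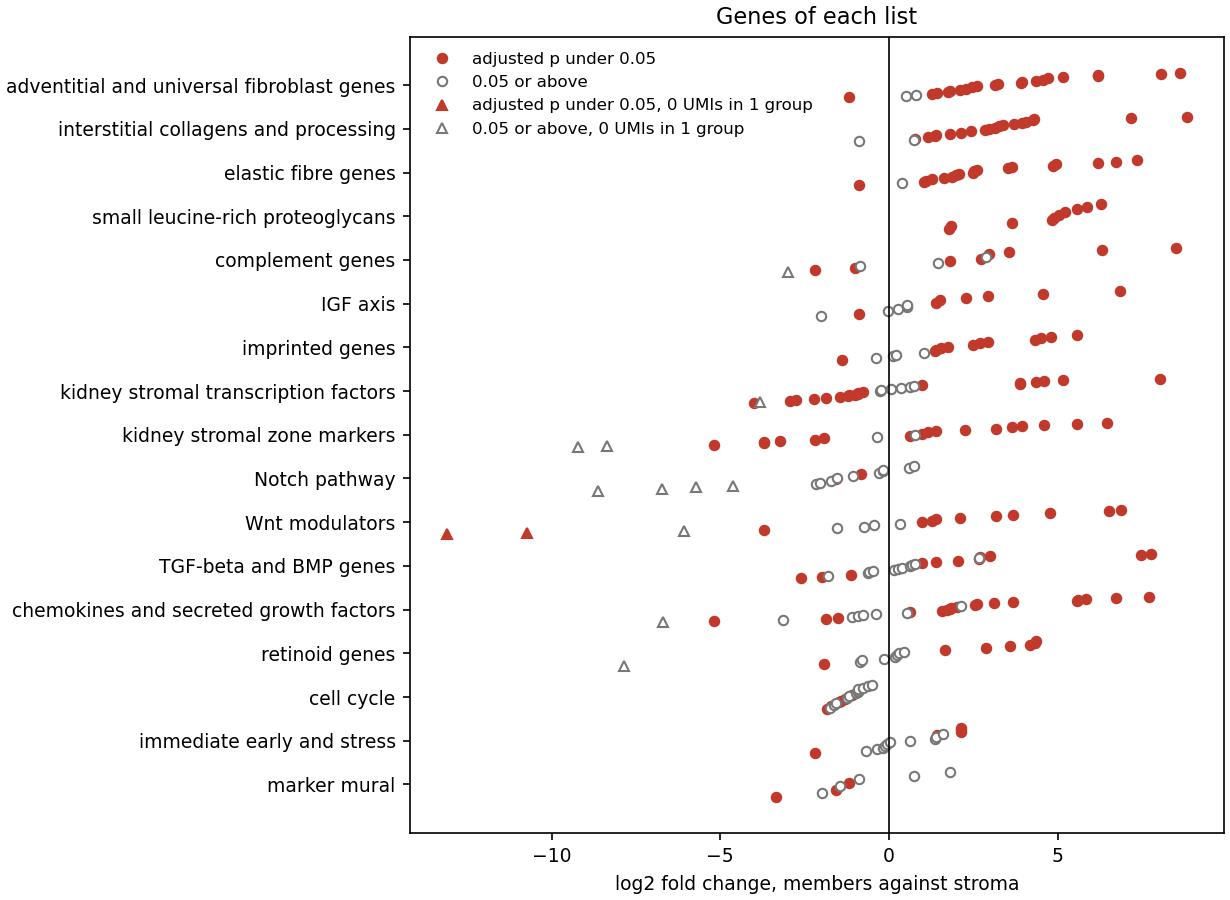
Log2 fold change of members against stroma (x axis) for each tested gene of the 16 lists and of the mural markers (y axis). Filled red symbols passed an adjusted p of 0.05, open grey ones did not, and triangles mark genes with 0 UMIs in 1 group, whose fitted value is no bound. The proteoglycans lie wholly to the right, and the cell cycle genes wholly to the left.

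Of 16 Notch pathway genes, none was higher and 2 were lower in members, a share of 12.5% called against 21.7% of all genes. The target gene Hes1 was at 50.5 and 64.0 CPM in members and 117 and 101 CPM in stroma (log2 fold change −0.82 ± 0.25, adjusted p = 0.025), a call lost in 6 of 18 alternatives. The receptor gene Notch1 was at 12.1 and 15.5 CPM against 49.1 and 40.0 CPM (−1.58 ± 0.40, adjusted p = 0.0087). Notch2 (0.60) and Notch3 (0.75) did not pass. The ligands Dll1, Dll4 and Jag2 and the target Hes5 had no UMI in members, the other targets Hey1, Hey2, Heyl and Nrarp had 1 to 8, and none of these genes passed. Dll1 had 195 and 56 UMIs in stroma and Hey1 347 and 211.

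Rbpj RNA, whose gene was targeted, was present in members. It gave 40 and 25 UMIs in 25 of 53 and 22 of 46 members, or 80.7 CPM (exact Poisson interval 57.7 to 110) and 55.2 CPM (35.7 to 81.5). Stroma had 678 and 482 UMIs, or 32.3 and 32.1 CPM. The members were above the stroma in both libraries (log2 fold change 1.21 ± 0.21, adjusted p = 6.1e-04), and the call was kept in each of the 18 tested alternatives (0.90 to 1.55). Leaving out a library gave 0.87 without replicate 1 and 1.47 without replicate 2, values with no test.

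Among the classes, members (mean 68.0 CPM ± 18.0, SD, n = 2) lay nearest nephron progenitors (59.7 ± 2.60) and podocytes (58.4 ± 6.19), from which their spread does not set them apart. Macrophages were highest at 162 CPM ± 27.8. Near-empty barcodes, which hold free RNA, had 63.4 and 57.1 CPM, and erythroid barcodes 1.63 and 1.18 CPM. The gene lies at chr5:53555779-53657445, and the labels do not say which part of it is deleted. A 3' read outside that part does not report the deletion, so these levels check neither the genotype nor recombination in single cells.

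EYFP was detected in 36 of 53 members (67.9%, exact interval 53.7 to 80.1) and 33 of 46 (71.7%, 56.5 to 84.0). Its level was 232 and 205 CPM. Collagen-positive stroma chosen without regard to EYFP had a UMI in 80.4% and 80.8% of barcodes, at 225 and 219 CPM. Thinned to 5000 UMIs per barcode, which left out 7 and 1 members, the shares were 67.4% and 57.8% in members and 67.4% and 69.6% in that stroma. In thinned nephron progenitors, where a UMI may come from free RNA, they were 3.93% and 2.67%.

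The test of EYFP between members and that stroma gave a log2 difference of 0.13 ± 0.23 (adjusted p = 0.74). Its sign depended on the stroma taken: against stroma without barcodes of another class, at 390 and 369 CPM, members were lower (−0.78 ± 0.22, adjusted p = 0.014). In that stroma the thinned shares were 80.3% and 80.2%. The 8 members with mesothelial markers had no EYFP UMI, and without them the difference from the full stroma was 0.31 (adjusted p = 0.39).

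**Figure D5:**
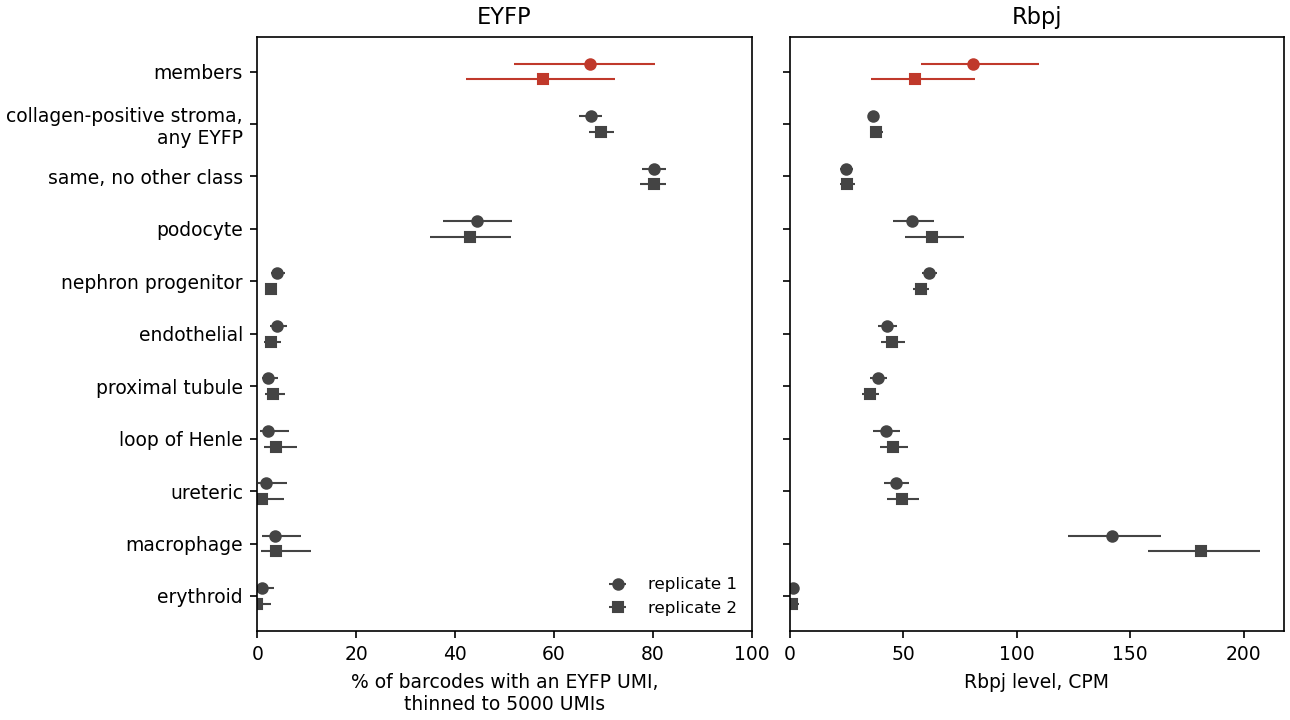
Left, share of barcodes with an EYFP UMI after thinning to 5000 UMIs, with exact 95% intervals. Right, Rbpj level in CPM with exact Poisson intervals. Each class has 1 point for each library, and intervals cover counting error only. Members lie at 67.4% and 57.8% for EYFP, below the 80.3% and 80.2% of stroma without other classes, and at 80.7 and 55.2 CPM for Rbpj.

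The 69 members with EYFP were compared with the 30 without by the same edgeR test, over 14831 genes. Of these, 188 (1.27%) passed, 73 (0.492%) higher with EYFP and 115 (0.775%) higher without. The naming rule gave 6 genes towards the EYFP-negative members. These, Slpi, Upk3b, Gpm6a, Krt14, Upk1b and Muc16, had no UMI in EYFP-positive members, so their order was not measured and only bounds on their folds were, from at least 56.3-fold (Upk1b) to at least 675-fold (Slpi) lower, with a floor of 3 UMIs over the EYFP-positive members. Slpi, a secreted protease inhibitor, had 709 and 117 UMIs in the EYFP-negative ones. Without the 8 members with mesothelial markers 21 genes passed, 16 higher with EYFP and 5 without. The median depth was 8404.5 and 9590 UMIs in the members with EYFP, against 6398 and 7400 UMIs in the 22 without it that remained. The part of depth in this comparison was not tested.

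The 16 genes higher with EYFP differed by 0.83 to 3.25 on the log2 scale. They included Fabp5, a fatty acid carrier, at 562 and 474 CPM against 143 and 63.1 CPM (2.48), Crip1, a LIM protein gene (2.27), the redox gene Txn1 (1.74), and the widely expressed genes Actb (1.06) and Ppia (0.95). Genes of both directions were named after their values were seen. Of the 5 higher without EYFP, Apoe, a lipid carrier, was at 234 and 186 CPM in EYFP-positive members and 1077 and 1608 CPM in the others (log2 difference −2.44 ± 0.20, adjusted p = 3.9e-06). Ptn was at 355 and 270 CPM against 1781 and 1750 CPM (−2.28), and Col9a1, a chain of a fibril-associated collagen, at 30.4 and 17.4 CPM against 253 and 284 CPM (−3.26). Stc1 and Kcnk2 had no UMI in the EYFP-positive members and 16 and 10 UMIs in the others. For all 5 both libraries of EYFP-negative members lay above both of EYFP-positive ones. They were picked because they passed in these same libraries, so this is no further evidence.

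Hes1 led the genes higher in EYFP-positive members by the naming rule (at least 10 UMIs in each library), with 24 and 29 UMIs against 1 and 0, a ratio of levels of 21.6 (exact interval 3.72 to 870) (log2 difference 4.54 ± 0.95, adjusted p = 0.019). Without the members with mesothelial markers it did not pass (3.82, adjusted p = 0.26). Mfap5 was higher in EYFP-positive members, at 3034 and 2284 CPM against 1071 and 967 CPM (1.49, adjusted p = 8.8e-05), and it did not pass without those 8 (0.83, adjusted p = 0.083). Dlk1 was at 4492 and 4449 CPM with EYFP and 2274 and 2338 CPM without, or 2935 and 2743 CPM without EYFP once those 8 are left out. Rbpj was at 69.9 and 43.6 CPM with EYFP and 102 and 92.0 CPM without (−0.69 ± 0.35, adjusted p = 0.50). EYFP-positive members alone were still above the stroma in Rbpj (0.90 ± 0.26, adjusted p = 0.025).

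Of 18 cell cycle genes, 0 were higher and 6 lower in members (median −1.21). Top2a, which untangles replicated DNA, was at 103 and 115 CPM against 311 and 321 CPM (log2 fold change −1.43, adjusted p = 0.029). The replication gene Mcm3 was at 16.1 and 33.1 CPM against 65.9 and 63.3 CPM (−1.29). The count was 11 against stroma without barcodes of another class and 0 when members were limited to those with EYFP. Mki67, a marker of dividing cells, was at 38.3 and 119 CPM in members, and all its UMIs came from 15 members. The calls of Mki67 and Top2a were lost in 10 and 5 of 18 alternatives.

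Of 15 immediate early and stress genes, which respond to handling among other stimuli, Fos (2.13), Jun (1.42), Dusp1 (2.13) and Hspb1 (2.13) were higher in members and Egr1 was lower (−2.21). Fos was at 40.4 and 46.4 CPM against 7.76 and 14.3 CPM in stroma. Without the 8 members with mesothelial markers Fos, Hspb1 and Egr1 no longer passed (adjusted p = 0.063, 0.068 and 0.063).

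Of 8 mural markers, 3 were lower and none higher. Acta2, the actin of contractile cells, was at 76.7 and 59.6 CPM in members and 753 and 723 CPM in stroma (log2 fold change −3.34 ± 0.82, adjusted p = 0.0073), and Rgs5 (−1.20) and Mcam (−1.57, lost in 9 of 18 alternatives) were lower as well. Only 11 members had an Acta2 UMI, and 1 in each library held 28 of 38 and 20 of 27 of them. All 5 podocyte markers were lower against stroma. Once barcodes of another class were left out of it none was lower, and Synpo, an actin-binding protein gene, was higher (1.84, adjusted p = 0.040). Among 5 endothelial markers, the cadherin Cdh5 was higher, with 25 and 6 UMIs in members (2.24, adjusted p = 0.0042). The VEGF receptor gene Kdr was higher as well (1.56, adjusted p = 0.047), but not without the members with mesothelial markers (0.97, adjusted p = 0.39). The sialomucin Emcn was lower, with 3 UMIs in members (ratio of levels 0.0976, exact interval 0.0201 to 0.286).

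Among genes with at least 20 UMIs in each member library, the 12 with the largest positive change included 4 that were spread over 34 to 72 members: Krtdap, Smpd3, Col6a6 and Medag. Krtdap, a keratinocyte differentiation gene, had 95 and 61 UMIs in 34 members and none in stroma, at least 1975-fold higher with a floor of 3 UMIs over the stroma. Smpd3, a sphingomyelinase gene, was at 454 and 254 CPM against 0.238 and 0.200 CPM (log2 fold change 10.69 ± 0.40). Myoc, a secreted protein of eye and nerve-sheath tissue, had 45 UMIs in 10 members and none in stroma, at least 570-fold higher, and 1 member in each library held 16 and 14 of them. Krt14, Muc16, Slpi, Lrrn4 and Msln rested on 7 to 10 members. Without the 8 with mesothelial markers, Slpi and Msln did not pass, and the other 3 were too low to test. Dmkn and C3 did pass without them, at 5.95 and 4.68.

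The 12 lowest fitted changes all belonged to genes with 0 UMIs in members. Their order rests on fitted values, and only a bound on each fold was measured, so they are not shown to differ more than genes such as Cxcl14. Besides Dkk1 and Lef1 they were Fli1, an ETS factor of vessels and blood (at least 14.9-fold lower), Lrriq1, Rassf9, Ica1, Chd7, Rhpn1, Aif1l, Ddn, Tmem54 and Arhgef16. The last 6 of these lost their call against stroma without barcodes of another class. Dkk1, Lef1, Fli1, Lrriq1, Rassf9 and Ica1 kept theirs in that comparison.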

How the data were processed

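Single-cell RNA-seq libraries (10x Chromium, 3' ends) of 2 mutant kidney samples were deposited as raw UMI counts per gene and barcode, unfiltered. Cell Ranger 4 made them per the file headers, while the submitters' processing notes name Cell Ranger 6.0.1 and mm10. The authors' settings are otherwise not given in the sources used here. From these deposited counts, barcodes with at least 2000 UMIs and at most 10% mitochondrial UMIs were kept. Doublets were scored with Scrublet (scanpy 1.11.5) and removed in an alternative only, since its automatic threshold marked no member. UMIs were summed per library and class and fitted with edgeR 4.0.16 (TMM, filterByExpr, quasi-likelihood, Benjamini-Hochberg) over members, stroma and 7 further classes, with the library as a block. These 18 sums left 8 residual degrees of freedom. Every class of a library comes from the same sample, which is the source of the pairing. The 4 selecting genes, both collagens, Epcam, Pecam1 and EYFP were in this fit and its adjustment (14986 genes) and were then left out of the results. EYFP was tested only against stroma chosen without it. Dlk1 stayed among the genes counted, but its test is not given, since it was proposed with the rule. DESeq2 1.42.0 was an alternative. In simulated counts for the comparison of members with stroma (14656 genes), 70.9% of genes changed by 1 on the log2 scale (78 of 110) and 94.4% of those changed by 2 (85 of 90) were recovered. Of 14456 unchanged genes 15 were called. The changed genes were drawn from those above 20 CPM in stroma, and all genes had 1 common dispersion (0.0121). These shares do not cover genes of lower level or of larger spread.

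The members and lists were chosen with earlier results of these data known. Named genes had to pass an adjusted p of 0.05 with the same direction in both libraries and at least 20 UMIs per library in the higher group. They were the 12 highest and 12 lowest changes and up to 6 per list. Up to 6 each way were named between EYFP-positive and EYFP-negative members by the same conditions, with at least 10 UMIs. Further genes of the fixed lists and markers were named after their values were seen. A few genes counted in the lists are not reported here by name. Gene positions come from a RefSeq table of GRCm38.p6. Symbols in 4 cases were matched through older names. Overlapping or antisense genes may share reads where strand use is not stated.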

Additional observations from a re-analysis of the deposited data

How the results depend on the processing

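The count of 3247 genes between members and stroma lay between 2560 and 3524 over 18 alternatives (3512 with no replicate block), and 2626 calls were shared in direction with stroma without barcodes of another class. The 188 genes between EYFP-positive and EYFP-negative members became 86 with doublets removed, 72 with at least 5 UMIs of the 4 genes, 62 at a mitochondrial limit of 5%, 21 without mesothelial members, 289 by DESeq2, 458 without a filter on low counts and 219 with no replicate block. The EYFP difference turned to −0.33 without barcodes over 50000 UMIs, −0.44 in a window of 5000 to 30000 UMIs, −0.30 with Epcam and Pecam1 at 0 in stroma, −0.78 without barcodes of another class and −0.17 with at least 20 collagen UMIs. The members' share of 0.873% became 0.942% at 2 UMIs of the 4 genes, 0.758% at 5, 0.914% at 5000 UMIs per barcode, 1.27% at the 5% mitochondrial limit and 0.941% without barcodes over 50000 UMIs. Leaving out replicate 1 and then replicate 2 gave 0.893% and 0.852% for the share, 0.87 and 1.47 for Rbpj, and 0.03 and 0.22 for EYFP; with 1 library left the counts of genes have no test and were not computed.

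Over 164 genes, those of the naming rule and the further genes with a printed fold, direction and call were kept in 2710 cases, the call was lost in 157 and gained in 41, and the fitted sign changed in 35. Members with EYFP, and members without mesothelial markers, gave −5.97 and −6.00 for Slpi and −5.78 and −5.80 for Upk3b, values fitted from 0 UMIs in members that show no direction (adjusted p from edgeR 0.52 to 0.58), −9.67 and −9.67 for Cldn3 (also fitted from 0 UMIs in members), −1.36 and −1.23 for Krt19, −1.70 and −1.98 for Krt8 and −0.63 and −0.90 for Crym. At least 5 UMIs of the 4 genes gave −0.57 for Cldn3, and stroma chosen without EYFP −0.22. Against stroma without barcodes of another class, Cited1 gave 3.37, Cd59a 0.54, Bmp7 1.17, Six2 1.71, Eya1 1.29, Podxl 0.90, Synpo 1.84, Dpp4 4.40, Vegfa 0.86, Penk −0.095, Efemp2 −0.082 and Thy1 −0.22. With at least 20 collagen UMIs Thy1 gave −0.094. The 5% mitochondrial limit gave −0.50 for Cdkn1c, 0.11 for Col8a1 and −0.25 for Cxcl12. Epcam and Pecam1 at 0 in stroma gave 0.20 for Cited1, −0.18 for Cdkn1c and −0.14 for Foxd1, leaving out barcodes over 50000 UMIs 0.95 for Cited1, and doublet removal −0.037 for Foxd1. List counts stayed within 1.5 times in 440 cases and moved further in 46. Causes were not tested beyond what each setting leaves out. With 99 members, the number of UMIs limits the precision for genes of low level.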
